A study of Arabidopsis thaliana with 6 samples.

Results

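The 9 genes described here encode proteins that write, remove or act beside the repressive marks H3K9 methylation and H3K27me1 in Arabidopsis thaliana. They were taken as a fixed list of gene identifiers, and are 9 of the 33189 genes of the deposited gene table. The H3K9 methyltransferases are SUVH4 (AT5G13960), SUVH5 (AT2G35160) and SUVH6 (AT2G22740). The H3K27 monomethyltransferases are ATXR5 (AT5G09790) and ATXR6 (AT5G24330). The others are the H3K9 demethylase IBM1 (AT3G07610), the silencing factor MOM1 (AT1G08060) and the ATPases MORC1 (AT4G36290) and MORC6 (AT1G19100).

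RNA-seq was made from 7-day-old whole seedlings of 2 genotypes. They were tsk-4, a mutant in the gene TONSOKU (TSK), and wild-type Col, with 3 libraries each. The labels give ecotype Col for the wild type, give no agent for either genotype, and do not say which part of TSK the allele alters. Whether replicates were grown separately is not labelled, so p-values cover only the spread among these libraries, and that spread may be technical.

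H3K9me2 marks transposons and other silent sequence in plants. SUVH4 binds DNA methylated at CHG sites and methylates H3K9 there, and the CHG methyltransferase CMT3 binds H3K9me2, so that each mark feeds the other. ATXR5 and ATXR6 put a single methyl group on K27 of histone H3.1, the variant laid down during replication. Seedlings mutant in both genes over-replicate their heterochromatin. TONSOKU binds H3.1 whose K27 carries no methyl group. IBM1 takes H3K9 methylation away from the bodies of active genes. MOM1 keeps transposons silent largely without changing their DNA methylation, and MORC1 and MORC6 are partner ATPases that compact heterochromatin.

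None of the 8 members that could be tested passed the test, in either direction, while 19.8% of all tested genes did. IBM1 came closest, with all 3 tsk-4 libraries below all 3 Col libraries, and it did pass under other ways of scaling the same libraries. MORC6 was the other member whose genotypes did not overlap, with tsk-4 above Col. Over all tested genes, 37.5% had genotypes that did not overlap. SUVH6 was too low to test, at 20 reads in the 3 tsk-4 libraries and 16 in the 3 Col libraries.

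Sequences are shown for 3 members: IBM1, whose annotated forms share 1 value, MORC1, which shares sequence with a neighbour, and ATXR6, the 1 member with a match in a search for short promoter words. All were read from the TAIR10.1 reference, 5′ to 3′ on the strand of the gene. The long and the short form of IBM1 part at a 1974-base intron. Its donor and acceptor edges are shown with exon bases in capitals.

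IBM1 donor, chr3:2429110-2429139, forward strand: GACATGTCTGATGCGgttagtacccatatg
IBM1 acceptor, chr3:2431084-2431113, forward strand: ctttggttatttcagGTGAATATTTTGACG

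The short transcript ends at base 2430203 of chromosome 3, inside this intron, and so lacks the exons after it. Of the 3 annotated transcripts of IBM1, both long ones read on past the intron and 1 of them holds an added exon within it. The next exon of that transcript begins further on, so the capitals printed at the acceptor are intron bases in it. In Arabidopsis the long form encodes the active demethylase. The deposited value sums the forms, so it does not show how the reads divide between them.

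**Figure D1:**
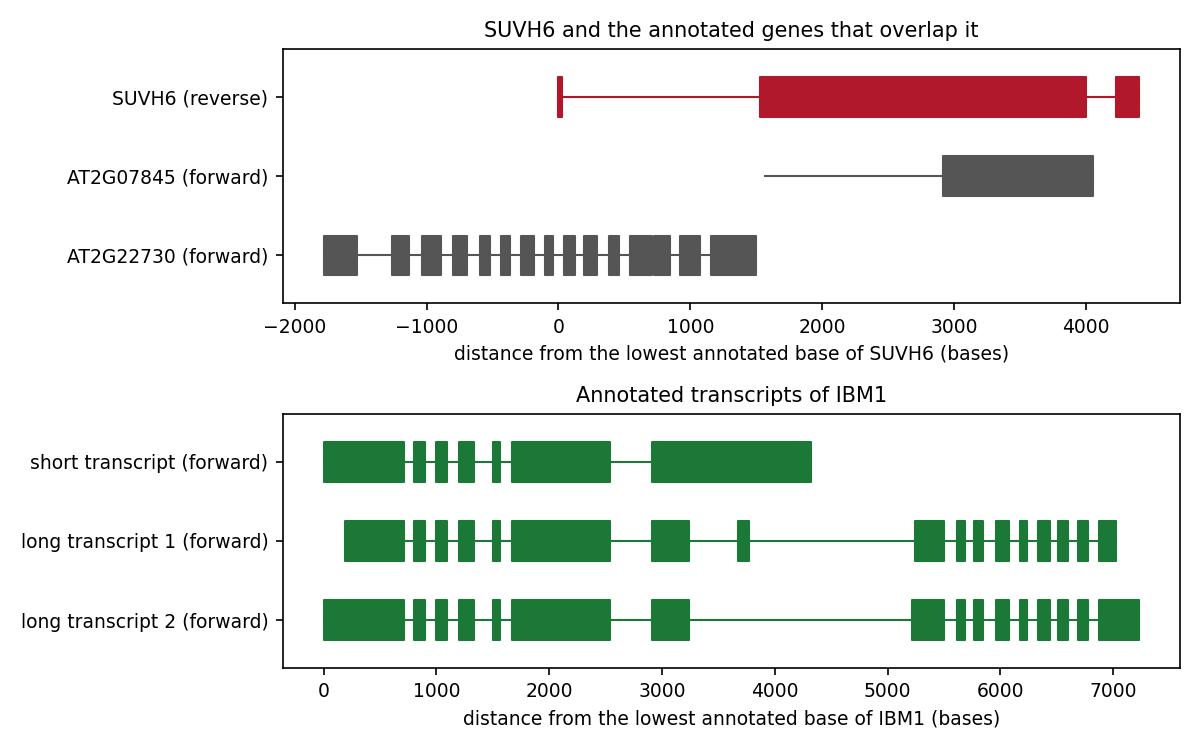
Annotated exons (boxes) and gene or transcript spans (lines) of SUVH6 with the genes that overlap it (top) and of the 3 transcripts of IBM1 (bottom), in bases from the lowest annotated base of each gene. The 2 genes on the other strand cover 90.5% of the SUVH6 span, and the short IBM1 transcript ends inside the long intron.

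MORC1 is the member whose reads could most be mistaken for those of another gene. Of its 1826 exon words of 31 bases, 100 (5.48%) occur elsewhere in the genome, against 4 of 2043 (0.20%) for MORC6 and 0 for each other member. The longest run that MORC1 shares is 74 bases of coding sequence, at chr4:17171566-17171639 on the reverse strand. The same run lies in its neighbour MORC2 (AT4G36280) at chr4:17167529-17167602.

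MORC1 and MORC2, shared run: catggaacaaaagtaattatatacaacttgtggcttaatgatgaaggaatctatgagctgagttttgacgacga

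E2F factors act on S phase genes through words such as TTTCCCGC, TTTCGCGC, TTTGCCGC and TTTGGCGC, which were searched on both strands. In the 250 bases before the gene start, 0 of the 9 members held one, against 387 of 27443 promoters of the genome (1.41%). The window was then extended by 50 bases after the start, a step taken after that search. In the longer window 1 of the 9 members, ATXR6, held a word, against 483 of 27443 promoters (1.76%). It begins at base 32 of the gene, not before its start, and is shown in capitals as a match of letters only.

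ATXR6, chr5:8297110-8297139, reverse strand: ccgtaacagtgGCGCCAAAttaaaattccc

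The gene table held 14418394 to 14946295 reads per tsk-4 library and 13726929 to 14934533 per Col library, so that 1 read in 1 kb was worth 0.149 to 0.164 TPM (the usual level per length, scaled to 1000000 in each library). TSK itself had 0.831, 0.959 and 0.918 TPM in tsk-4, against 3.73, 3.35 and 3.78 TPM in Col, a log2 change of −1.55 ± 0.20 (SE) with an adjusted p of 0.000966. Each log2 change sets tsk-4 over Col after adding 0.5 to the TPM, and was tested with limma over all genes that reached 1 TPM in 3 or more of the 6 libraries. A gene was called where the Benjamini-Hochberg adjusted p was under 0.05. This called 3883 of 19574 genes (19.8%), 2912 higher (14.9%) and 971 lower (4.96%). With median-ratio scaling 17.4% were called, 9.22% higher and 8.22% lower, and with quantile normalization 17.2%, 8.71% higher and 8.48% lower. limma-voom on reads recovered from the TPM called 18.7% of 21646 genes, 9.67% higher and 9.03% lower. In whole seedlings, more cells of a type and more RNA per cell cannot be told apart.

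Set on 1 scale per length, TPM recomputed over merged exons, the members were low to middling genes. Over the 6 libraries MORC1 had the highest level at 11.99 ± 0.901 TPM (SD, n = 6), above 43.4% of the tested genes. SUVH4 at 10.52 ± 0.885, MORC6 at 10.4 ± 1.2, MOM1 at 9.40 ± 1.04 and IBM1 at 8.77 ± 1.5 TPM (SD, n = 6) followed, and each step between these 4 neighbours was smaller than their SDs. ATXR5 at 5.40 ± 1.11 and ATXR6 at 4.84 ± 1.21 TPM also lay within their SDs of each other. SUVH5 had 2.33 ± 0.506 TPM, and SUVH6 was last at 0.259 ± 0.0815 TPM.

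**Figure D2:**
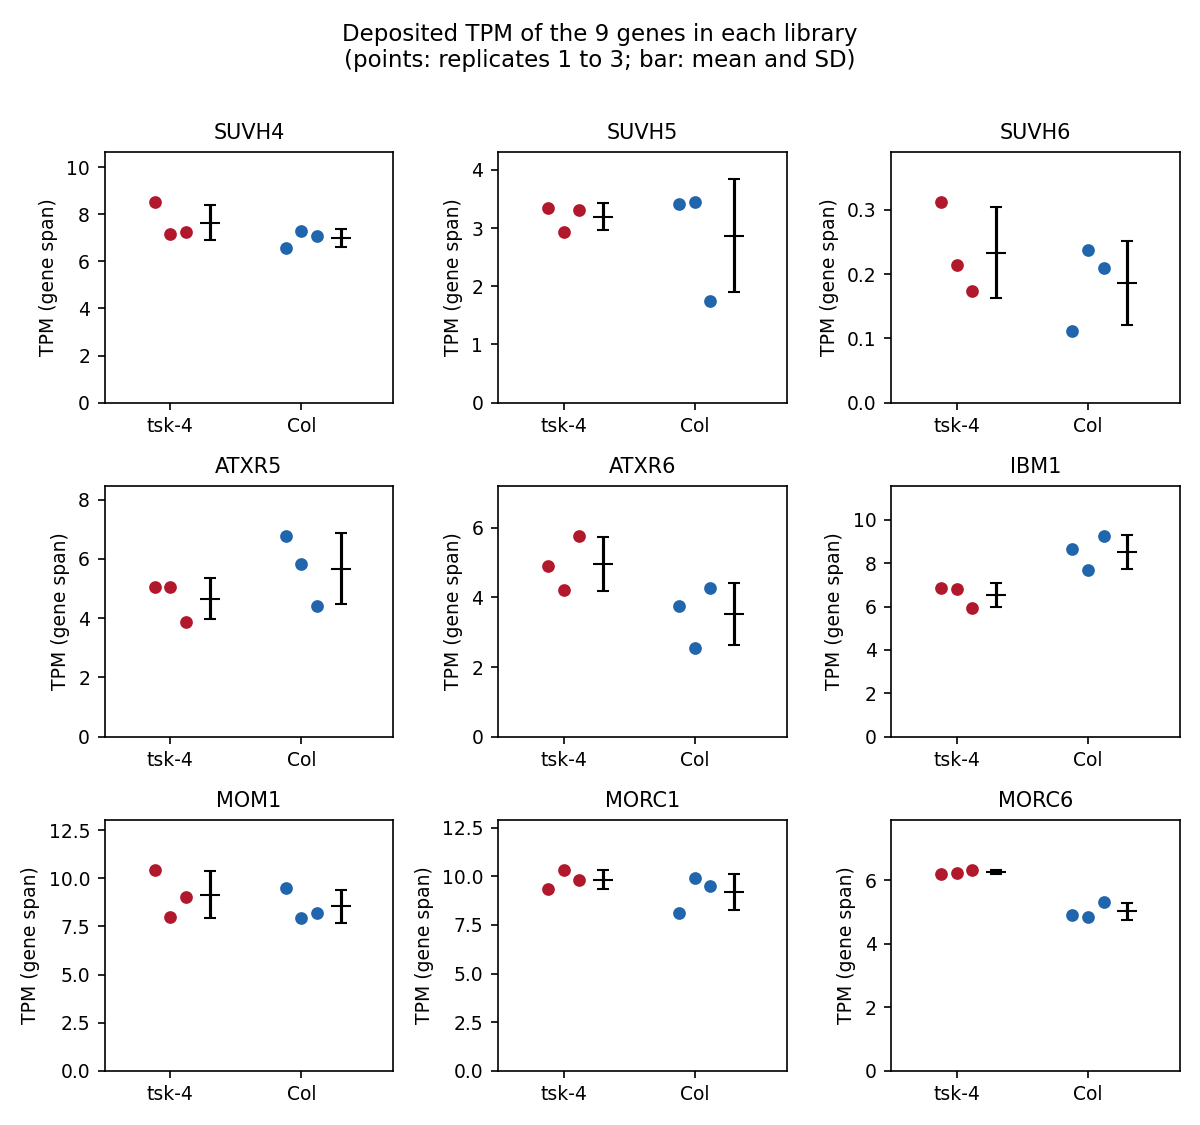
Deposited TPM of the 9 members in each library (points), tsk-4 left of Col, with the mean and SD over 3 libraries. The genotypes are apart in IBM1, where tsk-4 lies between 5.92 and 6.88 and Col between 7.68 and 9.26 TPM, and in MORC6, where tsk-4 lies between 6.20 and 6.33 and Col between 4.84 and 5.34 TPM.

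SUVH4, also known as KRYPTONITE, is the main H3K9 methyltransferase of the 3. It lies on chromosome 5 at 4501362 to 4506250 and had 8.52, 7.18 and 7.25 TPM in tsk-4, against 6.58, 7.30 and 7.10 TPM in Col. The genotypes overlapped, with 1 tsk-4 library above the other 5 libraries. The log2 change was 0.12 ± 0.12 (SE), with a 95% interval of −0.15 to 0.39 and a limma adjusted p of 0.532.

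SUVH5, a related enzyme that methylates H3K9 at part of the same loci, lies on chromosome 2 at 14822774 to 14826194. It had 3.35, 2.93 and 3.32 TPM in tsk-4, against 3.41, 3.45 and 1.75 TPM in Col. Col replicate 3 stood low, at 39 reads against 71 and 79 in the other Col libraries. The log2 change was 0.18 ± 0.24 (SE; 95% interval −0.36 to 0.72; limma adjusted p = 0.65), and without that library it was −0.09.

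SUVH6, a further enzyme of this group, lies on the reverse strand of chromosome 2 at 9662638 to 9667038. It had 0.312, 0.214 and 0.174 TPM in tsk-4, against 0.112, 0.238 and 0.209 TPM in Col, from 9, 6 and 5 reads in tsk-4 and 3, 7 and 6 in Col. The genotypes overlapped, and at these reads a difference was not detectable: limma-voom on the recovered reads gave 0.22 on the log2 scale, with a 95% interval of −1.0 to 1.43.

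The level of SUVH6 stands beside a property of its position. Of its span of 4401 bases, 3983 (90.5%) are covered by genes annotated on the other strand, the lncRNA AT2G07845 over 2487 bases and AT2G22730, of the major facilitator superfamily, over 1496. AT2G07845 had 0 reads in all 6 libraries, and AT2G22730 had 36, 21 and 24 in tsk-4 and 23, 24 and 26 in Col. Among protein-coding genes whose span is covered for 80% or more, 755 of 872 (86.6%) had no read in any library, against 3245 of 19672 (16.5%) where no base is covered. How reads in overlapping genes were counted is not given in the sources used here, and the part of this overlap in the low value of SUVH6 was not tested. Among the other members only SUVH4 overlaps a gene, by 60 bases.

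Within the summed exon-scaled level of the 3 SUVH genes, SUVH4 made up 79.97 ± 0.841% in tsk-4 and 80.6 ± 5.01% in Col (SD, n = 3 each). SUVH5 made up 17.9 ± 1.262% in tsk-4 and 17.5 ± 5.37% in Col (SD, n = 3 each). The mean shares were closer than the Col libraries were to each other. SUVH6 counts in the sum at its low value, in which the part of the overlap was not tested.

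**Figure D3:**
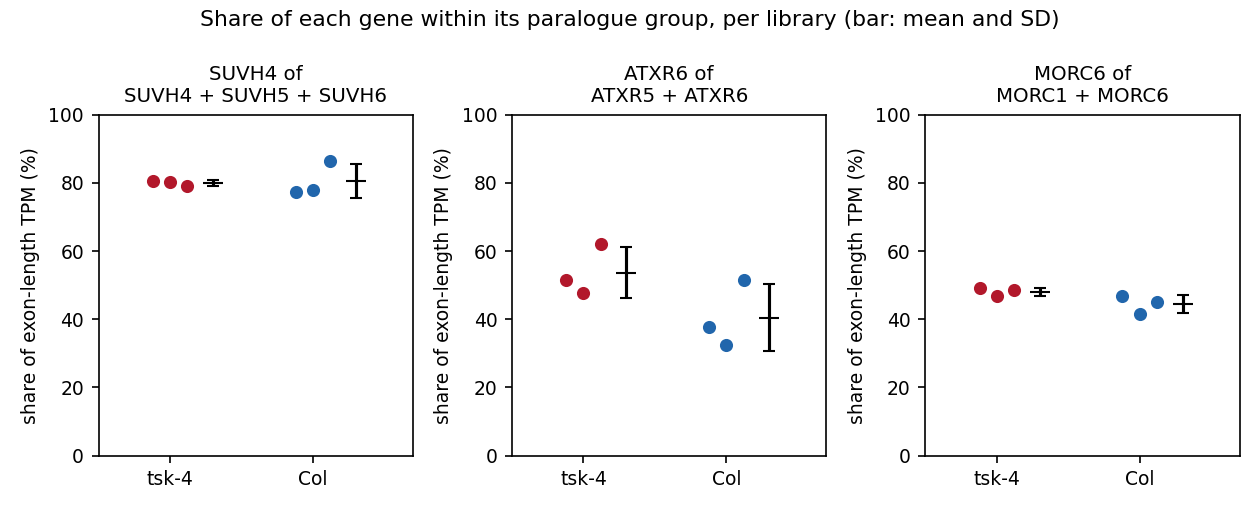
Share of SUVH4 in the summed exon-scaled TPM of SUVH4, SUVH5 and SUVH6, of ATXR6 in ATXR5 plus ATXR6, and of MORC6 in MORC1 plus MORC6, in percent, per library (points), tsk-4 left of Col, with mean and SD over 3 libraries. The ATXR6 share averages 53.7% in tsk-4 and 40.5% in Col, with the genotypes overlapping.

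ATXR5 and ATXR6 are partly redundant, and the data gave them changes of opposite sign, neither of which passed. ATXR5, on chromosome 5 at 3038978 to 3041206, had 5.07, 5.06 and 3.85 TPM in tsk-4, against 6.77, 5.83 and 4.41 TPM in Col. The genotypes overlapped, and the log2 change was −0.25 ± 0.18 (SE; 95% interval −0.66 to 0.16; limma adjusted p = 0.381). It was −0.12 without Col replicate 1, −0.13 without tsk-4 replicate 3 and −0.40 without Col replicate 3.

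ATXR6, on chromosome 5 at 8295110 to 8297159, had 4.91, 4.20 and 5.76 TPM in tsk-4, against 3.76, 2.55 and 4.27 TPM in Col. Only tsk-4 replicate 2 lay under the highest Col library. The log2 change was 0.45 ± 0.20 (SE; 95% interval −0.004 to 0.91; limma adjusted p = 0.152), from 198 reads in tsk-4 and 139 in Col. Without Col replicate 2, the lowest library, it was 0.27, and 0.21 in limma-voom. In limma it was 0.59 without Col replicate 3 and 0.56 without tsk-4 replicate 2. ATXR6 passed in 0 of its 19 alternatives in limma or limma-voom, where adjusted p ran between 0.0801 and 0.627.

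The ATXR6 share of ATXR5 plus ATXR6 does not depend on scaling between libraries. It was 51.5%, 47.6% and 62.1% in tsk-4, against 37.8%, 32.4% and 51.4% in Col. Col replicate 3 reached into the tsk-4 range. With 3 libraries each an exact permutation test could not have gone below 0.1, and none was made.

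ATXR6 is expressed in dividing cells, so markers of division were read beside it. None of the 8 S phase genes passed in limma, and 0 had an unadjusted p under 0.05, against 33.5% of all tested genes. Their median log2 change was −0.05, and 1 was lower in limma-voom. Among the 8 were the replication helicase subunit MCM5 at −0.12 and the ribonucleotide reductase subunit RNR1 at −0.05. Of 7 genes of the G2/M phase, 4 rose and 0 fell, against 14.9% higher and 4.96% lower over all tested genes, with a median of 0.44. These were the mitotic cyclin CYCB1;2 (0.97), the cytokinesis kinesin HIK (1.24) and the kinases CDKB2;2 (0.56) and CDKB2;1 (0.44), of which CDKB2;1 did not pass in limma under median-ratio scaling (adjusted p = 0.0648), under quantile normalization (adjusted p = 0.0925), or without any 1 library other than Col replicate 3. The summed level of these 7 genes was 271.8 to 295.5 TPM in tsk-4, against 176.0 to 225.6 TPM in Col, and of the S phase genes 160.9 to 167.6 TPM in tsk-4, against 159.3 to 183.4 TPM in Col. Their part in the ATXR6 values was not tested.

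IBM1, on chromosome 3 at 2425884 to 2433113, had 6.88, 6.80 and 5.92 TPM in tsk-4, against 8.65, 7.68 and 9.26 TPM in Col. Every tsk-4 library lay below every Col library, which held for 10.9% of the tested genes, while genotypes without overlap in either direction made up 37.5%. The log2 change was −0.36 ± 0.12 (SE), with a 95% interval of −0.64 to −0.08. The unadjusted p of 0.0169 became an adjusted p of 0.0716 in limma over all genes, so IBM1 did not pass.

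The call on IBM1 depended on the scaling, while the sign did not. It passed as lower with median-ratio scaling (−0.44, adjusted p = 0.0352), with quantile normalization (−0.45, adjusted p = 0.0331) and in limma-voom on the recovered reads (−0.47, adjusted p = 0.00399). These were 3 of the 14 alternatives planned, and the only ones of the 14 that rescaled the libraries against each other. On TPM as deposited it did not pass when any 1 of the 6 libraries was left out (adjusted p between 0.0853 and 0.204). In limma-voom, from 919 reads in tsk-4 and 1189 in Col, it passed in each of the 6 such fits, which were added after seeing the data (adjusted p between 0.00627 and 0.0311). Over all 20 alternatives the log2 change lay between −0.54 and −0.29 and the adjusted p between 0.00399 and 0.204.

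**Figure D4:**
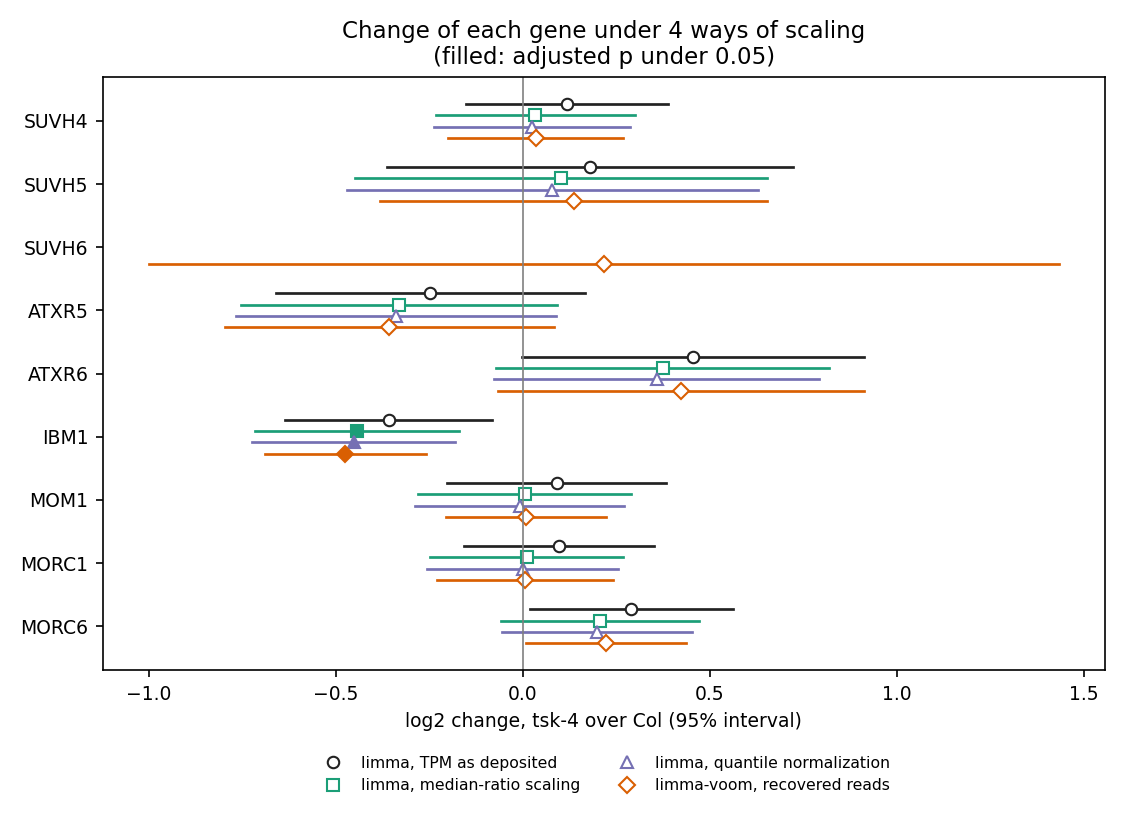
Log2 change of each member, tsk-4 over Col, with 95% intervals (lines), in limma on TPM as deposited, with median-ratio scaling and with quantile normalization, and in limma-voom on recovered reads; filled symbols mark an adjusted p under 0.05. IBM1 lies below 0 in all 4 and is filled in 3, and SUVH6 is drawn only for limma-voom.

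MOM1, which resembles a chromatin remodeller, lies on chromosome 1 at 2501704 to 2511084. It had 10.4, 8.02 and 9.01 TPM in tsk-4, against 9.499, 7.94 and 8.18 TPM in Col. The genotypes overlapped, with 1 tsk-4 library above and 1 Col library below all libraries of the other genotype (log2 change 0.09 ± 0.13 SE; 95% interval −0.20 to 0.38; limma adjusted p = 0.671).

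MORC1, found first through its role in resistance to a virus, lies on chromosome 4 at 17169385 to 17173361. It had 9.37, 10.3 and 9.80 TPM in tsk-4, against 8.13, 9.91 and 9.497 TPM in Col. The genotypes overlapped, and the log2 change was 0.10 ± 0.11 (SE; 95% interval −0.16 to 0.35; limma adjusted p = 0.591). The shared run printed above is a limit on this value, since the handling of reads with several matches is not given.

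MORC6, on chromosome 1 at 6594883 to 6601355, had 6.20, 6.24 and 6.33 TPM in tsk-4, against 4.92, 4.84 and 5.34 TPM in Col. Every tsk-4 library lay above every Col library, as in 26.7% of the tested genes, and the tsk-4 libraries lay close together. The log2 change was 0.29 ± 0.12 (SE; 95% interval 0.02 to 0.56), with an unadjusted p of 0.0391 and a limma adjusted p of 0.126. Under median-ratio scaling it was 0.21 (95% interval −0.06 to 0.47), and under quantile normalization 0.20 (95% interval −0.06 to 0.45). MORC6 passed in none of its 20 alternatives, where adjusted p ran between 0.124 and 0.312. Its share of MORC1 plus MORC6 was 48.1 ± 1.16% in tsk-4 and 44.5 ± 2.67% in Col (SD, n = 3 each), with overlapping libraries.

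Counted together, 0 of the 8 tested members were called, against 19.8% of all tested genes. At an unadjusted p under 0.05 there were 2 members, IBM1 and MORC6, against 33.5% of the tested genes, and limma-voom called IBM1 alone. The unadjusted limma p of MORC6 was 0.113 under median-ratio scaling and 0.112 under quantile normalization. The median log2 change of the 8 was 0.11, against 0.08 over all tested genes. The change was positive in 6 of the 8, but under quantile normalization MOM1 at −0.0091 and MORC1 at −0.0006 turned.

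In the lists of related genes, 3 genes passed: SUVH9, AT5G50780 and CMT2. Over all tested genes 14.9% were called higher and 4.96% lower. Of 12 other SUVH and SUVR genes 8 were tested and 1 passed. SUVH9, which binds methylated DNA and helps recruit RNA polymerase V, had 46.7, 42.6 and 42.8 TPM in tsk-4, against 33.3, 33.9 and 29.6 TPM in Col. It rose by 0.44 ± 0.08 (SE) on the log2 scale, with a limma adjusted p of 0.00552.

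Of 5 other MORC genes 4 were tested and 1 passed. AT5G50780, annotated as an ATPase of the histidine kinase, DNA gyrase B and HSP90 family, had 9.53, 9.08 and 11.5 TPM in tsk-4, against 4.82, 5.62 and 4.62 TPM in Col. It rose by 0.93 ± 0.14 (SE) on the log2 scale, with a limma adjusted p of 0.00198. MORC6 carries the same family annotation, as do MORC2, AT4G24970 and AT5G13130 of this list. MORC2 and AT4G24970 were not called, and AT5G13130 was not tested.

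Of 9 partners of the marks and of MOM1, 0 rose and 1 fell. CMT2, which methylates DNA at CHH and CHG sites of long transposons and binds H3K9me2, had 15.7, 13.7 and 14.8 TPM in tsk-4, against 21.8, 20.6 and 20.3 TPM in Col. It fell by 0.49 on the log2 scale (SE 0.09), with a limma adjusted p of 0.00536. The list's median was 0.12.

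None of the 7 JMJ genes of the IBM1 clade and factors of IBM1 transcript processing passed (median 0.03). JMJ24, a relative of IBM1, had a log2 change of −0.15 ± 0.10 (SE), and EDM2, which promotes the long IBM1 transcript, had −0.13 ± 0.09. The change was positive in the other 5. AT1G05970 (0.39 ± 0.14 SE, limma adjusted p = 0.0877) and ASI1 (0.31 ± 0.19 SE, limma adjusted p = 0.305) had every tsk-4 library above every Col library, as did 26.7% of all tested genes. Both are listed as factors of IBM1 transcript processing and were chosen here after their values were seen. In the list 1 gene, AT1G05970, had an unadjusted limma p under 0.05, against 33.5% of all tested genes, and limma-voom called 0.

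Among 7 loci known as targets of the members 4 were tested and none passed (median 0.15). In limma 1 had an unadjusted p under 0.05, against 33.5% of all tested genes, and limma-voom called 0. The tryptophan synthesis genes PAI1 and PAI2 of this list had log2 changes of 0.16 ± 0.12 and 0.14 ± 0.15 (SE). BNS, which gains methylation when IBM1 is lost and was chosen here after its values were seen, had 6.64, 4.06 and 4.91 TPM in tsk-4, against 2.75, 3.99 and 2.69 TPM in Col. Every tsk-4 library lay above the Col libraries, as in 26.7% of the tested genes. The gap was narrow, with 34 reads in tsk-4 replicate 2 and 35 in Col replicate 2. The log2 change was 0.64 ± 0.21 (SE), with a limma adjusted p of 0.066.

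**Figure D5:**
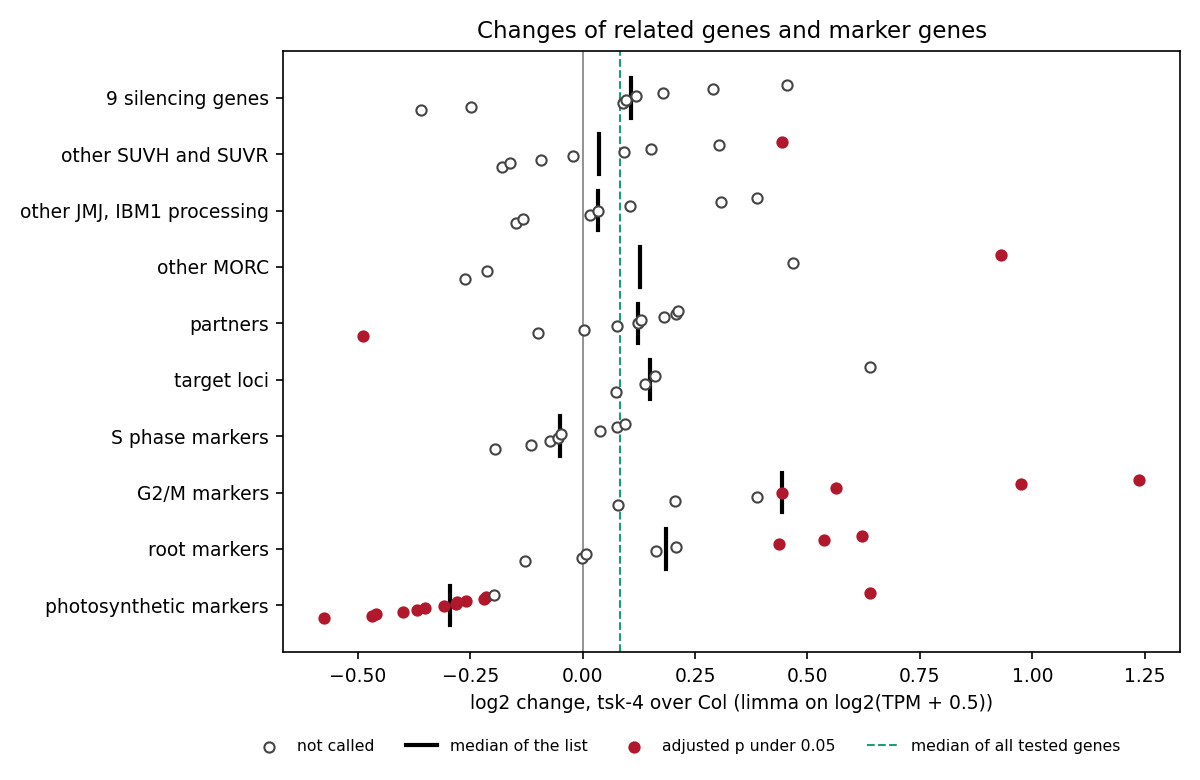
Log2 change, tsk-4 over Col, of the 8 tested members (top row) and of the tested genes of the related and marker lists (points, filled where called), with the median of each list (bars) and of all tested genes (dashed line, 0.08). The members' median is 0.11, and the list medians run from −0.30 for photosynthetic genes to 0.44 for G2/M genes.

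Markers of other tissues also differed between the genotypes. Of 14 photosynthetic genes 12 fell (4.96% over all tested genes) and 1 rose, with a median of −0.30, while under quantile normalization 5 fell. They included the antenna genes LHCB1.1 (−0.40) and LHCB1.2 (−0.57), which are near-identical copies and so uncertain, the Rubisco small subunit RBCS3B (−0.47), and LHCB5, which rose by 0.64. Their summed level was 109273 to 113156 TPM in tsk-4, against 136422 to 139356 TPM in Col. Of 8 root genes 3 rose (14.9% over all tested genes), the cell wall genes PRP3 (0.44) and EXPA18 (0.54) and the root patterning factor SHR (0.62), and their summed level was 214.2 to 249.1 TPM in tsk-4, against 195.6 to 197.3 TPM in Col. The part of these shifts in the members' values was not tested.

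For each tested member, the gene whose log2(TPM + 0.5) followed it most closely over the 6 libraries was read off as a description. Genes that differ by genotype resemble each other over 6 libraries for that reason alone. Each r was also picked as the highest over all tested genes outside the members, so high values follow from that choice too. IBM1 was closest to the cytokinin response regulator ARR15 (Pearson r = 0.998), and MORC6 to the lectin-like AT1G52060 (r = 0.9985), with 83 genes at 0.99 or more. For SUVH4 it was AT3G08820 (r = 0.985), for SUVH5 GH3.1 (r = 0.987), for ATXR5 AT5G66390 (r = 0.9904), for ATXR6 AT4G30180 (r = 0.993), for MOM1 APRL4 (r = 0.996) and for MORC1 AT1G08165 (r = 0.991).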

How the data were processed

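Total RNA of 7-day seedlings was sequenced in 3 tsk-4 and 3 Col libraries, grouped by the sample titles. The authors deposited a gene table in TPM, in which each library summed to 1000000. The submitters' processing notes name fastp 0.20.1, HISAT2 2.1.10, HTSeq 0.11.2, DESeq2 1.26.0 and the build TAIR10. What each tool did, whether strand was used and how reads with several matches were treated is not given in the sources used here. The deposited TPM took the whole gene span, introns included, as length, and multiplied by that span 100% of values above 0 gave whole reads within 0.02. Tables of transposable elements were not used here.

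In R 4.3.3, limma 3.58.1 (trend on the mean) was run on log2(TPM + 0.5) of genes reaching 1 TPM in 3 or more of 6 libraries, a scale that understates changes of low genes. Alternatives were pseudocounts of 0.1 and 1, no filter, a filter of 5 TPM, median-ratio and quantile scaling, limma-voom on recovered reads (at least 10 over 6 libraries), a replicate block, and leaving out each library. limma-voom without each library, and span in place of exon length in shares, were chosen after seeing the data. Only the main fit was tried on simulated reads, with the same spread set for all genes, and the alternatives were not. Python 3.11.15, NumPy 2.4.6, pandas 2.3.3 and matplotlib 3.10.9 did the rest. Names, exons and sequences came from TAIR10.1 (1-based); 33056 of the 33189 rows matched it.

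The members and lists were chosen with earlier results of these data known. All members were named, with TSK, the called genes of each list (at most 4, by smallest adjusted p; with no call, the 2 of highest mean TPM), and the gene most like each tested member.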

Additional observations from a re-analysis of the deposited data

How the results depend on the processing

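Of the genes called in the whole table, 1804 were higher under median-ratio scaling and 1704 under quantile normalization, and 1609 were lower under median-ratio scaling, 1660 under quantile normalization and 1954 in limma-voom. Leaving out 1 library gave 1783 to 3376 higher and 501 to 1162 lower genes; higher genes numbered 1927, 1783 and 1802 without tsk-4 replicate 1, tsk-4 replicate 3 and Col replicate 2, and lower genes 626, 578, 558 and 501 without tsk-4 replicate 2, tsk-4 replicate 3, Col replicate 1 and Col replicate 2. Among the members 0 were called higher in each setting tried. With all libraries, 1 member, IBM1, was called lower under median-ratio scaling, quantile normalization and limma-voom, and limma-voom also called 1, IBM1, without any 1 library. Its log2 change was −0.4444, −0.4529 and −0.4747 in those 3 settings. In limma-voom it was −0.5104, −0.5149 and −0.3976 without tsk-4 replicate 1, 2 and 3, and −0.4665, −0.5403 and −0.4191 without Col replicate 1, 2 and 3. On TPM without 1 library, 0 members were called lower, and the cause was not tested. SUVH5 ran between −0.0884 without Col replicate 3 and 0.3172 without Col replicate 2, and was −0.1996 in limma-voom without Col replicate 3. MOM1 was −0.0091 under quantile normalization, ran between −0.0027 without tsk-4 replicate 1 and 0.1773 without tsk-4 replicate 2, and in limma-voom was −0.0873, −0.0339 and −0.0277 without tsk-4 replicate 1, Col replicate 2 and Col replicate 3. MORC1 was −0.0006 under quantile normalization, and in limma-voom −0.0392 and −0.0788 without tsk-4 replicate 2 and Col replicate 1. SUVH4 in limma-voom was −0.0431 and −0.0111 without tsk-4 replicate 1 and Col replicate 1. None of these 4 genes was called in any setting. RNR1 ran between −0.1004 without Col replicate 2 and 0.0167 without Col replicate 3. The S phase list had 1 lower gene in limma-voom, and the photosynthetic list 6 without a filter and 5 under quantile normalization. CDKB2;1 lost its call under 7 alternatives. With gene span as length the SUVH4 share was 69.0% in tsk-4 and 70.0% in Col, the SUVH5 share 28.9% in tsk-4 and 28.1% in Col, and the MORC6 share 38.9% in tsk-4 and 35.5% in Col. Same-numbered libraries did not deviate together (r = 0.115, −0.087 and −0.109 for replicates 1, 2 and 3), and a fit with the replicate block called 2310 higher and 750 lower genes and 0 members. At 36 reads over 6 libraries, SUVH6 had the fewest reads of the members. The part of its overlap with other genes in this was not tested.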

Other observations

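Among the other SUVH and SUVR genes, 4 had no read in any library. SUVH8 is covered by another annotated gene over 100% of its span, and SUVR3 over 80.7%, where AT3G03740 had 399 to 478 reads in tsk-4 and 324 to 418 in Col. SUVH7 and SUVH10, which no other gene covers, were also at 0. No fold change was formed for these genes. Of the loci known as targets, SDC had 4 reads over the tsk-4 libraries and 6 over the Col libraries, FWA had 8 in tsk-4 and 4 in Col, and SUP was listed at 0.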
